A study of Homo sapiens with 6 samples.

Results

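Lysine acetyltransferases (KATs) move an acetyl group from acetyl-CoA to lysines of histones and other proteins, and BET proteins (bromodomain and extra-terminal) bind acetylated histones and help RNA polymerase II through elongation. The 9 genes described here were listed by symbol: the paralogous coactivators EP300 and CREBBP, the GCN5-type enzymes KAT2A and KAT2B, the MYST-type enzymes KAT5, KAT6A and KAT7, and the BET readers BRD2 and BRD3. All 9 were among the 62696 genes of each count table, and all 9 passed the filter on low counts with 18569 genes in all. Histone deacetylases remove the marks that these enzymes write, and HDAC1 is the deacetylase that the title of the series names together with LINC01638 and RHOB.

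The cells were 12Z, an established epithelial line from human endometriosis, labelled p40. They were harvested 72 h after transfection, with RNAiMAX, of a control siRNA (Ambion #4390846; replicates A, B and C) or of 1 siRNA against the long non-coding RNA LINC01638 (LINC01638_2; likewise A, B and C). Total RNA was depleted of ribosomal RNA and sequenced with strand information, and reads were counted per gene. The labels do not say that the replicates came from separate cultures, so each p-value rests on library-to-library spread, possibly technical only.

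Depth was 45617234 to 58148664 counts per library. LINC01638 itself was 72.6% lower in the libraries given its siRNA (log2 fold change −1.87, SE 0.11, edgeR adjusted p = 3.73e-11). Of 18569 genes tested, 56.0% passed (adjusted p under 0.05 by edgeR): 26.3% were higher with LINC01638 siRNA and 29.6% lower. With 1 siRNA against LINC01638, effects of its loss cannot be told apart from other effects of that siRNA. TMM scaling gave 4887 higher and 5503 lower genes, and scaling by library totals alone 6349 higher and 4288 lower. HDAC1 rose from 114 ± 2.80 to 237 ± 4.25 CPM (edgeR adjusted p = 8.51e-13). Reads that matched no exon on the strand counted, those opposite to an exon included, made up 9.18% ± 0.864 of mapped reads in control libraries. They made up 13.2% ± 1.67 in LINC01638 siRNA libraries (SD, n = 3 in each group), and the part of this in the values below was not tested. Of 8 epithelial markers, keratins were abundant (KRT8 at 2604 CPM in control libraries), CDH1 stood at 8.14 CPM, EPCAM at 0.377 CPM, and CLDN4 was under 1 CPM in each library. The epithelial markers summed to 5030 to 5460 CPM in control and 3332 to 3833 CPM with LINC01638 siRNA, 6 lower and 1 higher. The 6 stromal markers summed to 4487 to 5312 CPM in control and 3613 to 3934 in LINC01638 siRNA libraries, 5 lower and 1 higher, and their part was not tested. PECAM1, CLDN5 and TEK of 6 endothelial markers and PTPRC, CD3E, CD68 and LYZ among the immune markers were under 1 CPM in each library. Most of the endothelial sum came from KDR (12.3 CPM in control libraries) and most of the immune sum from CD14 (48.9 CPM), both lower with LINC01638 siRNA (7.995 and 34.6 CPM). Of the 3 endothelial markers tested, 2 passed as higher and 1 as lower (median log2 fold change 0.77). Of the 2 immune markers tested, 1 passed as lower and 1 did not pass.

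Stretches of the promoters of CREBBP, BRD2 and BRD3 are shown because these genes had 3 of the 4 widest changes among the 9, in both directions. Of the 9 genes, 8 have an entry in the RefSeq promoter table (GRCh38.p14). Each line gives 30 bases, 5′ to 3′ on the strand of the gene, before the most upstream listed start, with matches to the searched words in capitals. The stretches are chr16:3880814-3880843 (minus strand) for CREBBP, chr6:32968445-32968474 and chr6:32968503-32968532 (plus strand) for BRD2, and chr9:134068097-134068126 (minus strand) for BRD3, and none overlaps an exon of GENCODE 29. The BRD3 stretch lies inside the gene as GENCODE 29 draws it, 409 bases downstream of its annotated 5′ end, since the start in the RefSeq table lies further in.
CREBBP: aggtggaggGGGCGGGGCGGgggccgtgcg
BRD2, first stretch: ctcCCGCCCcacgaaaagcgcgcgctccaa
BRD2, second stretch: ccggacgccTGCGCActacggctctccccg
BRD3: gcctcccctGGGCGGccccggcgcgggccc
The words, on both strands, were the GC box GGGCGG, the E-box CACGTG, the cAMP response core TGACGT, the CCAAT box, the ETS word CCGGAAG, the AP-1 word TGAGTCA, the YY1 word AAGATGG, the NRF1 core TGCGCA and the TATA word TATAAA. In the 250 bases before the most upstream start, the GC box was found 3 times for CREBBP, of which the stretch shows a pair that share a base, 6 times for BRD3, 3 times for KAT2B and 1 time for BRD2, and 42.6% of the 35116 promoters in the table hold it. BRD2 and KAT2A also held TGCGCA, present in 6.89% of promoters, and EP300 held none of the 9 words. For EP300 all 250 bases searched lie inside the gene as GENCODE 29 draws it. KAT5 and KAT7 both held the ETS word (8.52% of promoters) and TGACGT (7.10%), and KAT5 also the E-box (6.34%). These matches too lie inside the genes as GENCODE 29 draws them. BRD2 has 4 listed starts and CREBBP 2. Which start these cells use was not tested for any of the genes. The GC box thus stood before the RefSeq start of genes that were higher and of genes that were lower in the comparison below. For KAT2B and BRD3, which were lower, all matches to it lie inside the gene as GENCODE 29 draws it.

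Levels can be compared between genes only per exon length, here as TMM-scaled CPM (counts scaled to library size) per kilobase of annotated exon (CPM per kb). In control libraries BRD2 was the most abundant of the 9 at 40.6 ± 0.701 CPM per kb, followed by BRD3 at 25.5 ± 0.554 and CREBBP at 15.02 ± 0.673 (SD, n = 3 each). KAT2A (12.9 ± 0.644) and EP300 (12.0 ± 0.775) came next and their libraries overlapped, so these neighbours did not differ beyond their spread. KAT5 (10.8 ± 0.259), KAT2B (7.77 ± 0.105), KAT7 (6.82 ± 0.0755) and KAT6A (4.42 ± 0.21) completed the order without overlap between neighbours. With LINC01638 siRNA, CREBBP (21.0 ± 1.27) stood above BRD3 (18.9 ± 0.29), and the libraries of these genes did not overlap in either group. At the low end, KAT7 (7.42 ± 0.122), KAT6A (7.13 ± 0.325) and KAT2B (6.90 ± 0.277) overlapped from neighbour to neighbour. The order rests on the annotated length: with the longest transcript in place of all exons, 3 of the 9 genes (BRD2, BRD3 and CREBBP) kept their control rank. KAT6A rose to rank 7, at 11.5 CPM per kb in control libraries, above KAT2B (9.06) and KAT7 (8.30).

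**Figure D1:**
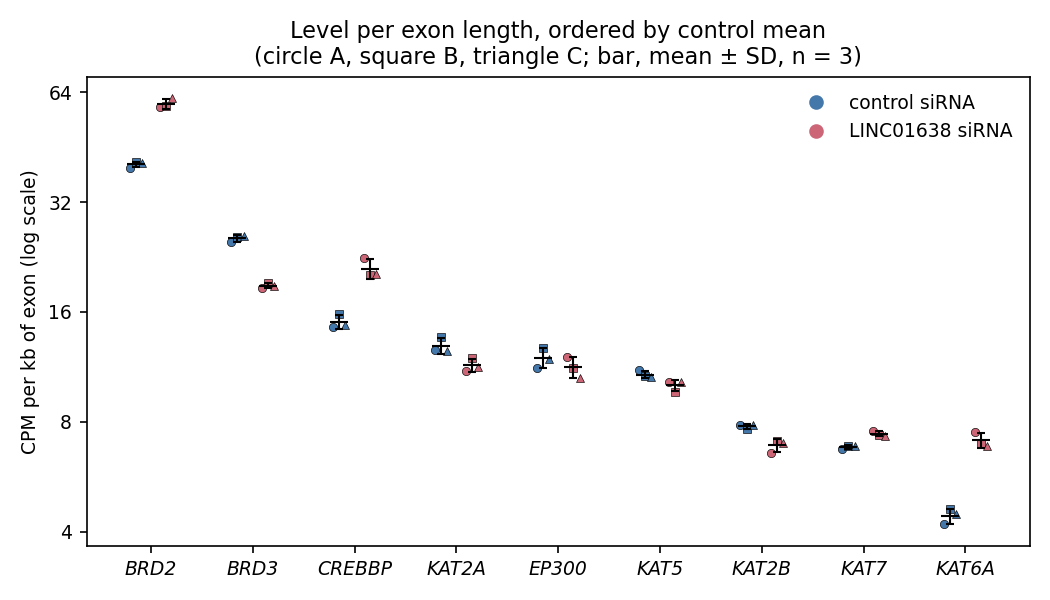
TMM-scaled CPM per kb of annotated exon (log axis) for each of the 9 genes in every library, with control siRNA in blue, LINC01638 siRNA in red and bars for mean ± SD (n = 3). BRD2 was highest in both groups, and BRD3 and CREBBP exchanged places. By this length KAT6A, lowest in control libraries at 4.42 CPM per kb, reached the level of KAT2B and KAT7 with LINC01638 siRNA. By the longest transcript KAT6A already stood above both in control libraries.

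Of the 9 genes, 7 passed the threshold against 56.0% of all genes tested: 4 were higher (CREBBP, KAT6A, KAT7 and BRD2) against 26.3% of all genes, and 3 were lower (KAT2A, KAT2B and BRD3) against 29.6%. EP300 and KAT5 did not pass. The median log2 fold change of the 9 was −0.09, against −0.0014 over all genes tested. The changes were of 2 sizes. CREBBP, KAT6A, BRD2 and BRD3 changed 1.35-fold to 1.61-fold, while KAT2A, KAT2B and KAT7 changed by no more than 1.13-fold.

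**Figure D2:**
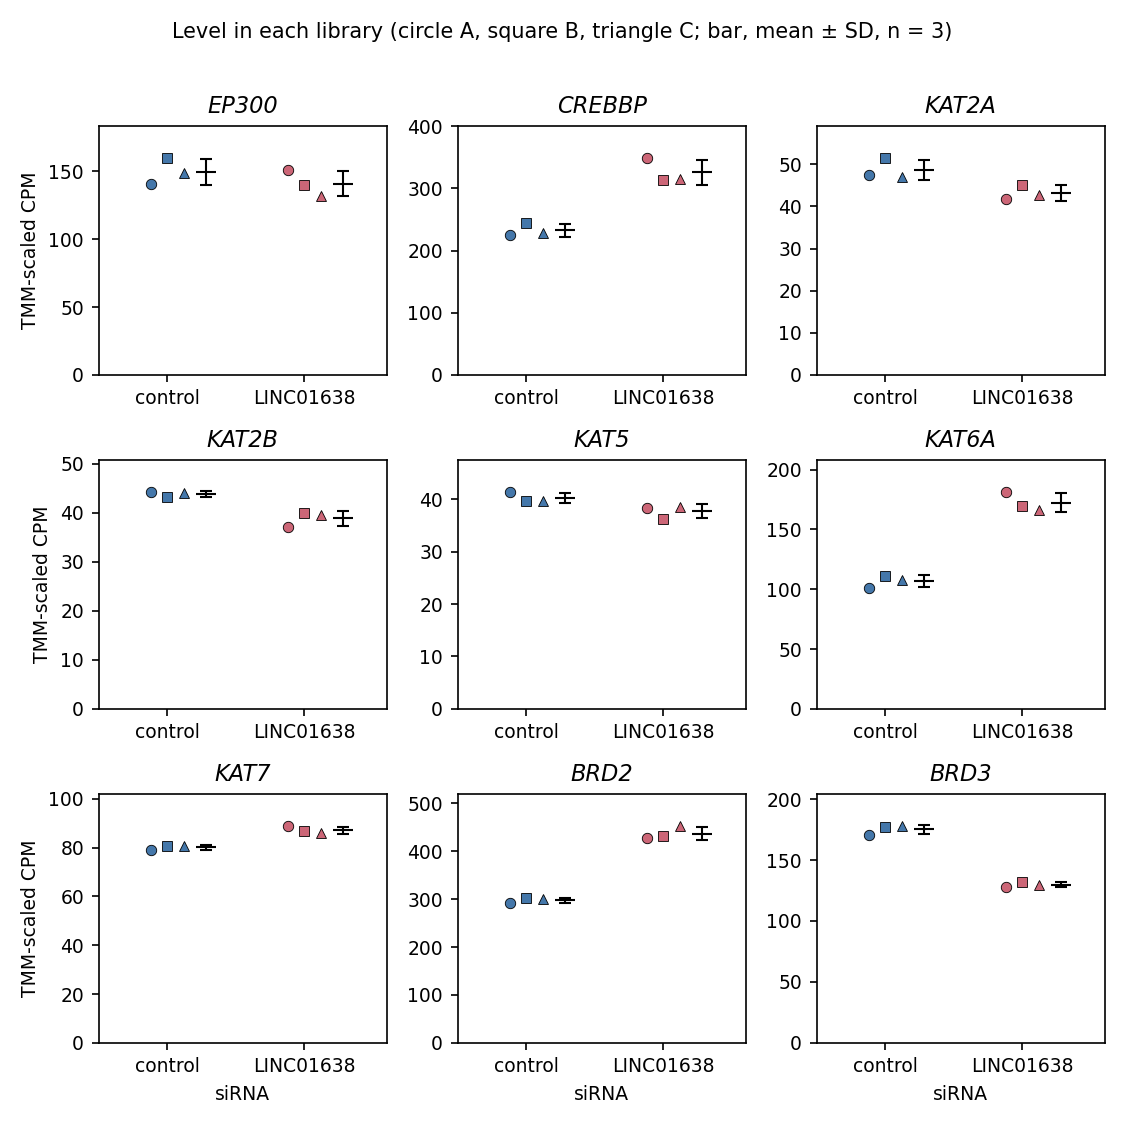
TMM-scaled CPM of each gene in every library (vertical axes start at 0), with control siRNA in blue, LINC01638 siRNA in red and bars for mean ± SD (n = 3). For 8 of the 9 genes the groups did not overlap, as for 61.5% of all genes tested, and EP300 was the exception. Of the 8, 4 were higher (29.4% of all genes tested) and 4 lower (32.1%).

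EP300 and CREBBP encode p300 and CBP, large acetyltransferases that bind many transcription factors and acetylate histone H3 at enhancers and promoters. CREBBP (ENSG00000005339.15, GRCh38 chromosome 16, 3725054 to 3880726, minus strand) stood at 225, 245 and 228 CPM in the control replicates (A, B, C in this order throughout) and at 348, 313 and 315 CPM in the LINC01638 siRNA replicates. Each LINC01638 siRNA library lay above each control library, replicate A highest. CREBBP rose 1.40-fold (log2 fold change 0.48, SE 0.054, edgeR adjusted p = 2.50e-07). EP300 (ENSG00000100393.15, chromosome 22, 41091786 to 41180079, plus strand) stood at 140.4, 159.7 and 149 CPM in control and 151, 140.3 and 132 CPM in LINC01638 siRNA replicates. The groups overlapped, and the log2 fold change was −0.09 (95% interval −0.20 to 0.03, edgeR adjusted p = 0.212). That interval leaves room for a fall of up to 0.20 on the log2 scale but does not reach the rise of its paralogue.

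The ratio of EP300 to CREBBP counts within a library, which no scaling alters, showed the same separation. It was 0.623, 0.653 and 0.653 in control replicates and 0.433, 0.448 and 0.419 in LINC01638 siRNA replicates, so that CREBBP reads exceeded EP300 reads in every library and by more with LINC01638 siRNA. The log2 ratio differed by −0.57 between the groups (SD within groups 0.043, n = 3 each; exact two-sided permutation p = 0.1, adjusted over 5 ratios 0.125). With 3 libraries against 3 this test cannot go below 0.1.

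KAT2A (GCN5) and KAT2B (PCAF) are alternative catalytic subunits of the SAGA and ATAC coactivator complexes. KAT2A (ENSG00000108773.11, chromosome 17, 42113108 to 42121358, minus strand) was at 47.4, 51.4 and 47.1 CPM in control and 41.7, 45.2 and 42.7 CPM in LINC01638 siRNA replicates. KAT2B (ENSG00000114166.8, chromosome 3, 20040023 to 20154404, plus strand) was at 44.2, 43.1 and 44.1 CPM and at 37.1, 40.03 and 39.5 CPM. KAT2A shares 405 bases of exon with AC099811.2 on its own strand, where reads cannot be assigned to either gene with certainty. The same limit holds over fewer bases for KAT7 (315, with AC027801.4), BRD2 (243, with AL645941.1) and EP300 (54, with MIR1281). For each gene all 3 LINC01638 siRNA libraries were below all 3 control libraries, by a narrow gap for KAT2A. Both had a log2 fold change of −0.17, with SE 0.056 for KAT2A and 0.054 for KAT2B (edgeR adjusted p = 0.0135 and 0.0106). The ratio of KAT2A to KAT2B was 1.11 ± 0.0709 in control and 1.11 ± 0.0262 in LINC01638 siRNA libraries, and the groups overlapped (exact two-sided permutation p = 1, n = 3 each). Without LINC01638 siRNA replicate A neither gene passed (edgeR adjusted p = 0.0674 for KAT2A and 0.0718 for KAT2B), and KAT2A also did not pass without control replicate B (0.0712). Scaled by library totals alone, their log2 fold changes were both −0.07 and neither passed (adjusted p = 0.292 and 0.275). That scaling moved the median of all genes by 0.10, so both genes still lay below the median gene.

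The MYST enzymes work in their own complexes: KAT5 is TIP60 of the NuA4/TIP60 complex, which acts in DNA repair and transcription, KAT6A is MOZ, and KAT7 is HBO1, which acetylates histones at replication origins and gene bodies. KAT6A (ENSG00000083168.11, chromosome 8, 41929479 to 42052026, minus strand) was at 101.3, 111 and 108 CPM in control and 181, 169.6 and 166 CPM in LINC01638 siRNA replicates. The groups were far apart, and this was the largest change among the 9 genes. KAT6A rose 1.61-fold (log2 fold change 0.69, SE 0.051, edgeR adjusted p = 8.20e-10). KAT7 (ENSG00000136504.13, chromosome 17, 49788555 to 49835030, plus strand) was at 79.1, 80.6 and 80.6 CPM in control and 88.8, 86.7 and 86.1 CPM in LINC01638 siRNA replicates. All 3 LINC01638 siRNA libraries lay above the controls, by 1.09-fold on average (log2 fold change 0.12, SE 0.046, edgeR adjusted p = 0.0293). This call is near the threshold: it was lost on leaving out any of 5 of the 6 libraries in turn (adjusted p from 0.0536 to 0.119, the exception being control replicate A), with the column that ignores strand (0.142) and with no filter on low counts (0.152).

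KAT5 (ENSG00000172977.13, chromosome 11, 65711996 to 65719604, plus strand) was at 41.3, 39.7 and 39.6 CPM in control and 38.4, 36.1 and 38.5 CPM in LINC01638 siRNA replicates. The libraries of the groups did not overlap, yet the difference did not pass (log2 fold change −0.09, 95% interval −0.21 to 0.02, edgeR adjusted p = 0.151). The strand matters for this gene, since 1439 bases, or 38.6% of its annotated exons, lie opposite RNASEH2C, a ribonuclease subunit gene that rose from 65.6 ± 3.33 to 96.0 ± 2.29 CPM (edgeR adjusted p = 1.59e-08). Counted without regard to strand, KAT5 dropped from rank 6 to rank 9 of the 9 genes in level per kb. Within libraries, KAT6A to KAT7 counts went from 1.33 ± 0.0502 to 1.98 ± 0.0571 and KAT5 to KAT7 counts from 0.502 ± 0.0178 to 0.432 ± 0.0154. Neither ratio overlapped between groups (exact two-sided permutation p = 0.1 for each, the smallest possible, n = 3 each; adjusted p = 0.125).

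BRD2 and BRD3 carry tandem bromodomains that hold acetylated histone H4, and they moved in opposite directions. BRD2 (ENSG00000204256.14, chromosome 6, 32968660 to 32981505, plus strand) was at 292, 302 and 299.99 CPM in control and 427, 431 and 452 CPM in LINC01638 siRNA replicates. BRD3 (ENSG00000169925.17, chromosome 9, 134030305 to 134068535, minus strand) was at 171, 177 and 178 CPM in control and 128, 132 and 129 CPM in LINC01638 siRNA replicates. Every LINC01638 siRNA library was above the controls for BRD2 and below them for BRD3. BRD2 rose 1.47-fold (log2 fold change 0.55, SE 0.049, edgeR adjusted p = 1.12e-08) and BRD3 fell 1.35-fold (log2 fold change −0.43, SE 0.046, edgeR adjusted p = 1.05e-07). The ratio of BRD2 to BRD3 counts was 1.71, 1.71 and 1.69 in control replicates and 3.33, 3.27 and 3.50 in LINC01638 siRNA replicates. It was thus 1.98-fold higher in the latter, the widest shift of the 5 ratios, with groups that did not overlap (log2 difference 0.98, SD within groups 0.036, n = 3 each; exact two-sided permutation p = 0.1, adjusted 0.125). BRD3 shares 1281 bases of exon with BRD3OS on the opposite strand, which stood at 58.7 ± 1.32 and 54.7 ± 1.26 CPM and did not pass (edgeR adjusted p = 0.0902).

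**Figure D3:**
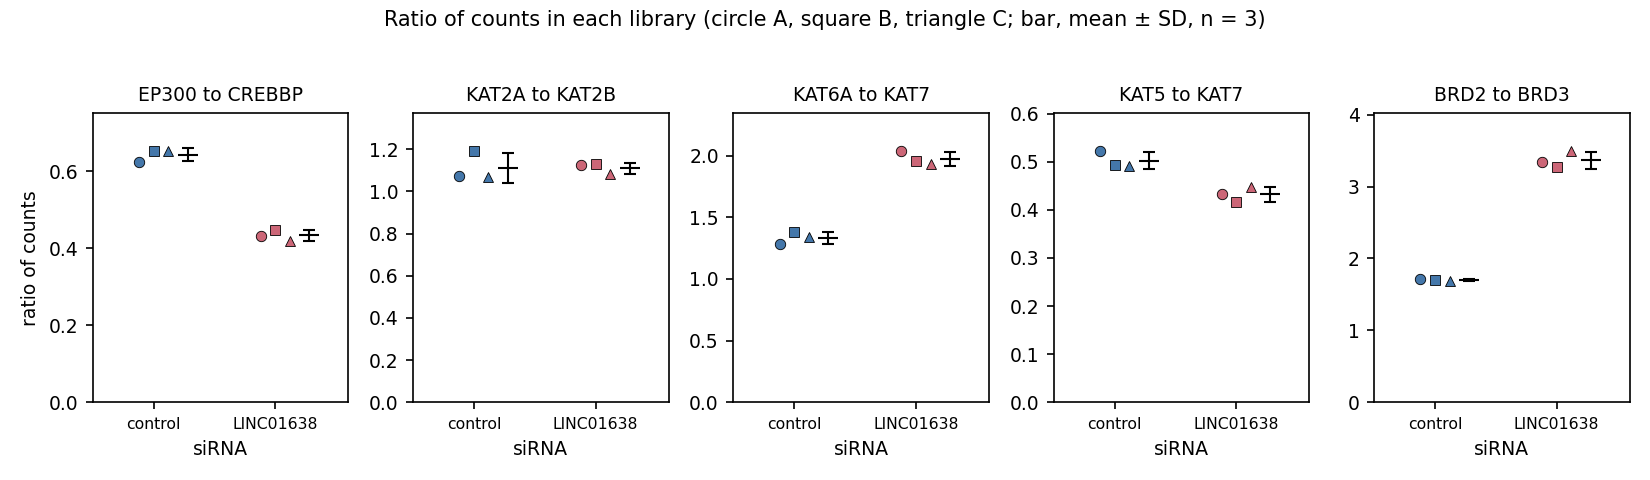
Ratio of counts of related genes within each library (vertical axes start at 0), with control siRNA in blue, LINC01638 siRNA in red and bars for mean ± SD (n = 3). BRD2 to BRD3 went from 1.70 to 3.37 and EP300 to CREBBP from 0.643 to 0.433 on average, whereas KAT2A to KAT2B averaged 1.11 in each group.

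Of 15 other genes listed as acetyltransferases, 7 rose, 1 fell and 7 did not pass. That is 53.3% called, near the 56.0% of all genes tested, with 46.7% higher and 6.67% lower against 26.3% and 29.6% (median log2 fold change 0.09, against −0.0014 over all genes). ATF2, a CREB-family factor with reported acetyltransferase activity, rose from 61.7 ± 3.04 to 91.7 ± 2.74 CPM, and NCOA3, a nuclear receptor coactivator, from 112 ± 3.05 to 154 ± 1.34 CPM. KAT6B, the paralogue of KAT6A, rose by less (63.2 ± 0.707 to 77.6 ± 2.14 CPM, log2 fold change 0.29). KAT8 (MOF, 0.24), HAT1 (acetylation of new histone H4, 0.23), NCOA1 (0.25) and TAF1 (0.25) also rose. KAT14, a subunit of the ATAC complex, was the one that fell, from 12.5 ± 0.217 to 5.44 ± 0.393 CPM (edgeR adjusted p = 6.27e-10; log2 fold change −1.20, SE 0.087). NCOA2 (−0.05), GTF3C4 (−0.09), CLOCK (−0.04), ELP3 (−0.06), NAA60 (0.09), NAT10 (−0.10) and ATAT1 (0.03) did not pass. Without regard to strand 3 of the 15 were lower, with GTF3C4 (edgeR adjusted p = 0.0218) and NAT10 (0.0300) added, and without LINC01638 siRNA replicate B 2 were lower, with NAT10 (0.0250) added. In the other direction, NAA60 passed as higher with library totals alone (edgeR adjusted p = 0.00256), with protein-coding genes only (0.0236) and with the stricter filter (0.0286).

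**Figure D4:**
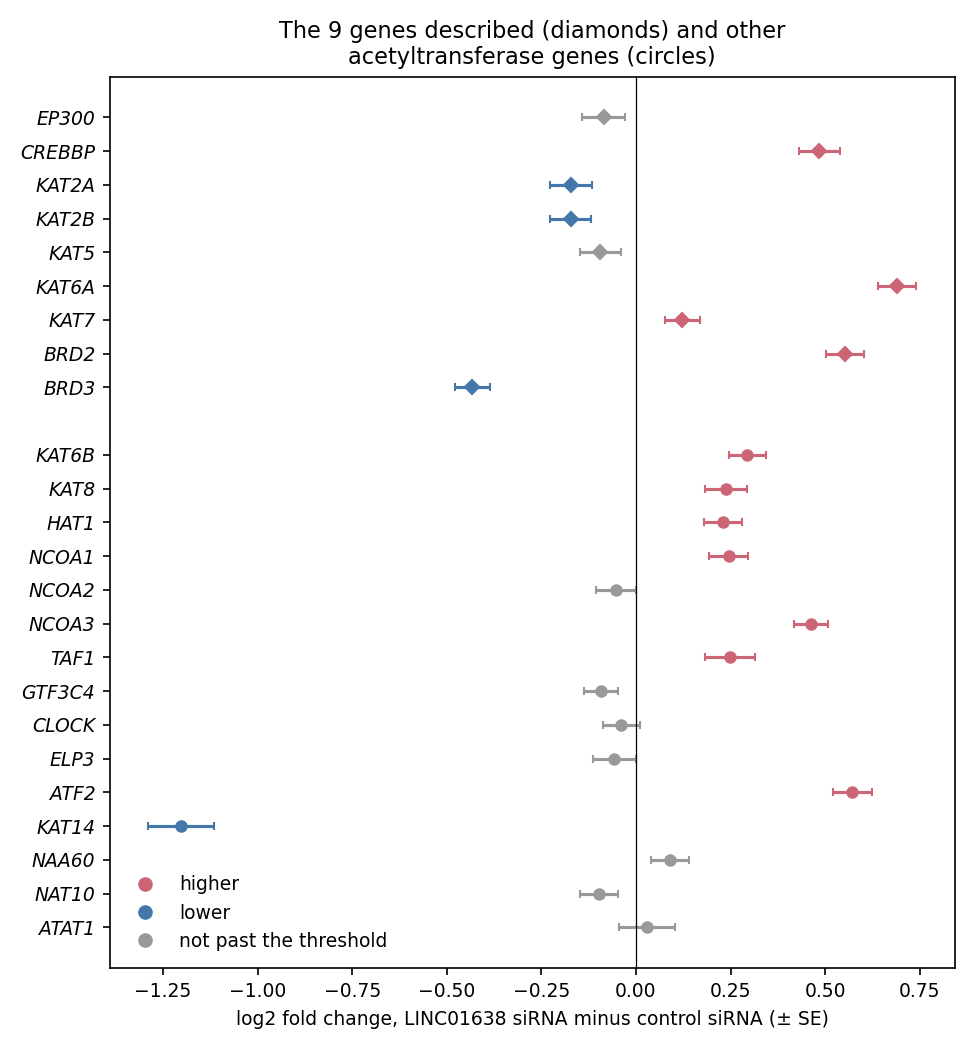
Log2 fold change (LINC01638 siRNA minus control siRNA) with SE for the 9 genes (diamonds) and for the other acetyltransferase genes tested (circles). Red marks genes that passed and were higher, blue those that were lower and grey those that did not pass. KAT6A at 0.69 is the highest value and KAT14 at −1.20 the lowest.

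Subunits of the complexes around these enzymes went both ways. The acetyltransferase genes described above, KAT14 of the ATAC complex included, are not counted in these lists. SAGA and ATAC subunits rose in 10 and fell in 9 of 28 cases (35.7% and 32.1%, against 26.3% and 29.6% of all genes tested; median −0.0048). TAF12, a histone-fold subunit, fell from 22.9 ± 1.26 to 13.5 ± 1.53 CPM, the adaptor gene TADA2A from 22.2 ± 1.76 to 14.2 ± 0.471 CPM and SF3B3 from 529 ± 13.3 to 386 ± 19.1 CPM, whereas TAF5L rose from 36.3 ± 0.598 to 51.2 ± 1.07 CPM. TIP60 complex subunits rose in 6 and fell in 4 of 16 cases (37.5% and 25.0%, against the same 26.3% and 29.6%; median −0.02). The scaffold genes EPC2 (33.3 ± 0.337 to 52.3 ± 2.36 CPM) and EPC1 (log2 fold change 0.46) and the reader ING3 (0.60) rose, while the ATPase gene RUVBL2 fell (−0.41). Of 8 subunits of the MOZ and HBO1 complexes, 4 rose, none fell and 4 did not pass (50% higher and 0% lower, against 26.3% and 29.6%; median 0.14). The HBO1 scaffold genes JADE2 (0.38) and JADE3 (0.34) rose with BRPF1 (0.29) and BRD1 (0.15), scaffolds of these complexes. With library totals alone 7 of the 8 passed as higher, and without regard to strand 3 were higher and 1, ING4, lower (−0.17, edgeR adjusted p = 0.0249). BRD1 did not pass without control replicate C (edgeR adjusted p = 0.155), without LINC01638 siRNA replicate A (0.0865) or C (0.0662), with no filter on low counts (0.0734) and without regard to strand (0.123).

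Partners of p300 and CBP fell in 5 and rose in 3 of 15 cases (33.3% and 20%, against 29.6% and 26.3% of all genes tested; median −0.07). With library totals alone 6 rose, and 5 rose with protein-coding genes only and with the stricter filter. CARM1, a histone arginine methyltransferase that acts with p300, fell 2.42-fold, to 56.9 ± 4.45 CPM against 137 ± 2.73 CPM with control siRNA (edgeR adjusted p = 6.73e-13; log2 fold change −1.27, SE 0.055). The Notch coactivator genes MAML2 (0.46) and MAML1 (0.32) and the factor STAT3 (0.39) rose. Genes of P-TEFb, the elongation kinase that BET proteins recruit, and of other elongation factors rose in 7 and fell in 5 of 18 cases (38.9% and 27.8%, against 26.3% and 29.6%; median 0.08), or in 11 and 2 with library totals alone. The cyclin genes CCNT1 (50.1 ± 1.39 to 69.2 ± 1.14 CPM) and CCNT2 (31.2 ± 1.92 to 43.6 ± 2.32 CPM) rose, and the pausing factor genes NELFE (−0.51) and NELFB (−0.35) fell. CDK9, the kinase subunit, picked out once its value was known, fell (log2 fold change −0.17, edgeR adjusted p = 0.00647). Genes listed as other readers of acetyl-lysine rose in 11 and fell in 7 of 30 cases (36.7% and 23.3%, against 26.3% and 29.6%, median 0.04). With library totals alone 17 rose and 4 fell. Whether each product binds acetyl-lysine was not tested. ZMYND11 fell from 89.2 ± 2.35 to 51.5 ± 4.05 CPM and the BAF subunit gene DPF3 from 10.5 ± 0.328 to 6.32 ± 0.854 CPM, while PHIP (0.35) and TRIM33 (0.33) rose.

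Of 12 genes listed under acetyl-CoA supply, not all of which make acetyl-CoA, 7 fell, 1 rose and 4 did not pass. That is 58.3% lower and 8.33% higher, against 29.6% and 26.3% of all genes tested (median −0.33). With library totals alone 4 rose, and without control replicate C 2 rose. ATP citrate lyase (ACLY), which makes acetyl-CoA outside mitochondria, fell from 683 ± 13.1 to 457 ± 9.11 CPM. The citrate carrier gene SLC25A1 fell from 165 ± 5.06 to 106 ± 3.89 CPM, carnitine acetyltransferase (CRAT) from 121 ± 1.59 to 63.7 ± 0.84 CPM and ACAT2 from 200.5 ± 11.9 to 153 ± 4.002 CPM. The one that rose, DLAT of pyruvate dehydrogenase, was picked out once its value was known (log2 fold change 0.20, edgeR adjusted p = 0.00232). ACLY and ACAT2 also belong to the lipid synthesis genes, so this count is not independent of that pathway.

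**Figure D5:**
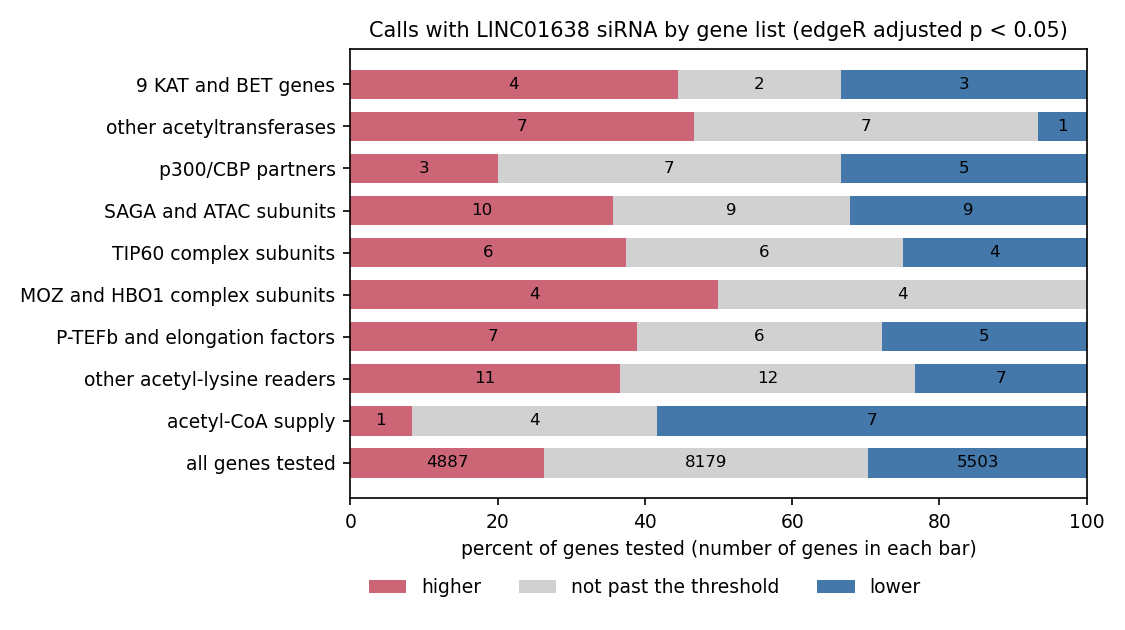
Share of the genes tested in each list that were higher (red), lower (blue) or not past the threshold (grey) with LINC01638 siRNA, with the number of genes written in each bar. Acetyl-CoA supply had 7 lower of 12 and the MOZ and HBO1 complexes none lower of 8, beside 5503 lower of 18569 genes tested.

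Among 138 other listed genes averaging 5 CPM or more, those most like each of the 9 across the 6 libraries were found by Pearson's r of log2 CPM, given as a description, since the groups set most of it. The genes most like CREBBP were PHIP and AFF4 (r = 0.995 and 0.994), those most like KAT6A were KAT6B and AFF4 (0.997 and 0.993), and those most like KAT7 were KAT6B and PHIP (0.994 and 0.988). For BRD2 they were TRIM33 and MAML1 (0.999 and 0.995), and for BRD3 they were KAT14 and CARM1 (0.996 and 0.993). KAT2A was most like SMARCA4 and NAT10 (0.959 and 0.923) and KAT2B most like EID1 and SUPT3H (0.99 and 0.97). EP300, whose groups overlapped, was most like TRRAP and PBRM1 (0.919 and 0.845), and KAT5 most like ING4 and ACSS2 (0.933 and 0.922).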

How the data were processed

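Total RNA of 12Z cells was measured in 6 libraries, 3 per siRNA. The submitters' processing notes list GRCh38 (hg38), R 4.2.1 and STAR 2.7.10b. The counts were deposited by the authors as whole numbers per gene without normalization, 1 table per library, with columns for both strands together and for each strand. The gene annotation behind the deposited counts is not given in the sources here. The reverse-strand column, which holds most reads of this directional kit, was used. The 4 rows that name no gene were left out of library sizes and tests: unmapped reads (12.7% of fragments on average), reads without an exon on the strand counted (11.2% of mapped reads), ambiguous reads (7.33%) and multi-mapping reads (0). Identifiers matched symbols exactly for 61918 genes and without version for 707. Positions and lengths came from GENCODE 29.

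Counts were filtered with filterByExpr (minimum count 10, total 15), scaled by TMM and compared with edgeR's quasi-likelihood test (robust, group as only term), adjusted by Benjamini-Hochberg over all 18569 genes. A positive log2 fold change means higher with LINC01638 siRNA. SE is the absolute log2 fold change over the square root of F, and 95% intervals use the t distribution of the fit. Tools were edgeR 4.0.16, DESeq2 1.42.0 and limma 3.58.1 in R 4.3.3, and scipy 1.17.1 with pandas 2.3.3 in Python 3.11.15. The fit was tested on simulated data with known changes in far fewer genes than were called here. It recovered 53.1% of 49 genes changed 1.25-fold, 75.5% of 49 changed 1.5-fold, 72.3% of 47 changed 2-fold and 95.8% of 48 changed 4-fold. Of its calls, 5.30% were false. Changes as small as those of KAT2A, KAT2B and KAT7 were not simulated. Alternatives were DESeq2's size factors and Wald test, library totals, protein-coding genes only, limma-voom, an unfiltered table, a harder filter (1 CPM or more in 3 libraries, and 10 counts on average), the column without strand, the replicate letter as a block and each library left out.

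The 9 genes and the lists were chosen with earlier results of these data known. Beside the 9 genes, the text names all other acetyltransferase genes tested and, of each other list, up to 4 genes past the threshold with the lowest p. Some genes under this rule are not reported here.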

Additional observations from a re-analysis of the deposited data

Results flagged for a closer look

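The column of counts on the opposite strand was used in no comparison, and over 5 of the 9 genes each LINC01638 siRNA library exceeded each control library in it. Of all 18569 genes tested, 15.8% did so and 7.36% did the reverse. Values are in CPM of the library total of the column used, without TMM scaling. Over KAT5 they were 15.6 ± 0.697 with control siRNA and 29.9 ± 2.63 with LINC01638 siRNA, which was 28.7% and 43.3% of the reads of both strands. Over BRD3 they were 4.14 ± 0.769 and 5.44 ± 0.146, over BRD2 0.881 ± 0.0477 and 1.70 ± 0.0564, over KAT7 0.485 ± 0.0597 and 0.948 ± 0.0963, and over KAT6A 0.192 ± 0.0387 and 0.431 ± 0.172 (SD, n = 3 each). As a share of both strands, means were 2.39% and 3.89% over BRD3, 0.306% and 0.376% over BRD2 and 0.624% and 1.04% over KAT7. For KAT6A the share was 0.187% ± 0.0461 and 0.240% ± 0.0946, on 8 to 29 counts per library. Its highest control library was at 0.236 CPM and its lowest LINC01638 siRNA library at 0.241 CPM. None of these differences was tested. On the opposite strand, GENCODE 29 places exons of RNASEH2C over KAT5, of BRD3OS over BRD3, of HLA-DMA and AL645941.3 over BRD2 and of FAM117A over KAT7. HLA-DMA went from 1.01 ± 0.10 to 2.15 ± 0.246 CPM (edgeR adjusted p = 3.13e-05) and FAM117A from 13.0 ± 0.365 to 17.1 ± 1.599 CPM (edgeR adjusted p = 2.67e-04). Their part in the opposite-strand counts was not tested.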

How the results depend on the processing

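CREBBP, KAT6A, BRD2 and BRD3 kept their direction and passed under all 15 alternatives of the test across genes. Their log2 fold changes ranged from 0.43 to 0.59, 0.65 to 0.79, 0.51 to 0.65 and −0.49 to −0.33. KAT7 passed under 7 of the 15, KAT2A under 12 and KAT2B under 13. Leaving out each library in turn gave 4 to 7 of the 9 genes past the threshold and 1 to 3 lower. The lowest counts came without LINC01638 siRNA replicate A.

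Scaling by library totals alone moved the median of all genes by 0.10, gave 6349 higher and 4288 lower genes in all, and left 1 of the 9 genes lower. It turned values near 0 that had not passed: EP300 0.0172, KAT5 0.00754, NCOA2 0.0506, GTF3C4 0.0108, CLOCK 0.0625, ELP3 0.0453, NAT10 0.00381, TRRAP 0.0783 and PBRM1 0.0173. With protein-coding genes only, CLOCK was at 0.00265 and TRRAP at 0.0179, and with the stricter filter TRRAP was at 0.0129. Without single libraries TRRAP ranged from −0.0965 to 0.0479. The log2 difference of the KAT2A to KAT2B ratio, 0.0011 as reported, was −0.00299 without regard to strand and −0.0270 to 0.0533 without single libraries. The order of levels per kb kept 3 of 9 ranks with the longest transcript and 5 without regard to strand. Why these values moved was not tested.

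Control and LINC01638 siRNA libraries of the same letter did not deviate together (correlations −0.22, −0.13 and 0.0038 for A, B and C over 12326 genes), so the letters were not taken as pairs. With the replicate block 6 of the 9 genes passed, KAT7 not (edgeR adjusted p = 0.0758), and of all genes 9962 passed against 10390. For the ratios the block cannot change a difference of means in this balanced design and tests nothing. The lowest count of any of the 9 genes in a library was 1736, for KAT5.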

Other observations

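The size of the changes can be read against the whole table. KAT6A had a larger absolute log2 fold change than 78.7% of the genes tested, BRD2 than 70.2%, CREBBP than 65.0% and BRD3 than 60.5%, whereas KAT2B, KAT2A, KAT7, KAT5 and EP300 lay above 14.6% to 28.1% of genes. All 9 genes were well expressed: between 69.2% (KAT5) and 98.1% (BRD2) of the genes tested had a lower mean CPM.

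By span on the genome, the genes that rose and those that fell interleaved. The 4 that rose span 12846 bases (BRD2), 46476 (KAT7), 122548 (KAT6A) and 155673 (CREBBP), and the 3 that fell span 8251 (KAT2A), 38231 (BRD3) and 114382 (KAT2B). By the summed length of annotated exons they did not: the 4 that rose have 24175 (KAT6A), 15492 (CREBBP), 11749 (KAT7) and 7337 bases (BRD2), all above the 3 that fell, with 6876 (BRD3), 5634 (KAT2B) and 3769 bases (KAT2A). EP300 and KAT5, which did not pass, have 12500 and 3732 bases. By the longest annotated transcript the genes that rose and fell interleaved again. BRD2, which rose, has 4894 bases there, and BRD3, which fell, has 5652. The part of length in the changes was not tested.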
